A study of Mus musculus with 242 samples.

Results

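Cyp2b10, Cyp2b9 and Cyp2b13 are the members of the mouse Cyp2b family of cytochrome P450 genes described here. They are 3 of 18193 genes measured on Affymetrix Mouse430_2 arrays (1 colour, biotin label) in livers of female B6C3F1 mice, a cross of the C57BL/6 and C3H strains used in rodent toxicity testing. A member was taken as every probe set whose annotation lists its symbol alone, and each gene was read by the probe set that was brightest on average. Cyp2b10 has 3 such probe sets, and Cyp2b9 and Cyp2b13 have 1 each.

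The study set livers of mice exposed for 13 weeks to 26 chemicals beside livers of mice given the vehicle alone. Mice were 5 weeks old at the start and 18 weeks old at the end, and the right, caudate and median lobes were minced together. There were 46 treated groups (183 arrays) and 14 control sets (59 arrays), with 3 to 5 mice per group and 1 array per mouse. For most arrays the labels give a mouse number. With 1 array per mouse, spread between animals and spread from RNA or array handling cannot be told apart.

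5 chemicals were given at 5 doses each. By gavage in corn oil these were 1,4-Dichlorobenzene (100, 300, 400, 500 and 600 mg/kg) and 1,2,3-Trichloropropane (2, 6, 20, 40 and 60 mg/kg). By inhalation they were Methylene Chloride (100, 500, 2000, 3000 and 4000 ppm), Naphthalene (0.5, 3, 10, 20 and 30 ppm) and Propylene glycol mono-t-butyl ether (25, 75, 300, 800 and 1200 ppm). The other 21 had 1 dose. In chow these were Malathion (14800 ppm, although the titles of its samples give a higher number), 1,5-Naphthalenediamine and N-(1-naphthyl)ethylenediamine dihydrochloride (2000 ppm each), Pentachloronitrobenzene (8187 ppm), 1-Amino-2,4-dibromoanthraquinone (20000 ppm), Tris(2,3-dibromopropyl)phosphate (1000 ppm), 2,2-Bis(bromomethyl)-1,3-propanediol (1250 ppm), 4-Nitroanthranilic acid (10000 ppm) and Diazinon (200 ppm). By gavage in corn oil they were Coumarin (200 mg/kg), Benzene (100 mg/kg), 1,2-Dibromoethane (62 mg/kg), 2,3-Benzofuran (240 mg/kg), Iodoform (93 mg/kg) and Trichlorofluoromethane (3925 mg/kg). In distilled water by gavage they were N-Methylolacrylamide (50 mg/kg) and 2-Chloromethylpyridine hydrochloride (250 mg/kg). By inhalation they were Tetrafluoroethylene (1250 ppm), Tetrafluororethane (50000 ppm), Ethylene Oxide (100 ppm) and Vanadium Pentoxide (2 mg/m3). Control sets are called by the codes in their titles: CCO2, CCO4, CCO5, CCO6 and CornOil received corn oil, CCO3 and WCO1 distilled water, FCO1, FCO2 and RodentChow plain chow, and ACO1, ACO3, ACO4 and ACO5 air. CCO3 is placed by its label, although its code is like those of the corn oil sets.

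Cytochromes P450 of the Cyp2b family are haem enzymes of the endoplasmic reticulum of hepatocytes that oxidise drugs, steroids and foreign chemicals. Cyp2b10 is the mouse counterpart of rat CYP2B1 and human CYP2B6 and the textbook target of the constitutive androstane receptor CAR, the nuclear receptor that phenobarbital and related compounds activate. Cyp2b9 and Cyp2b13 are known as genes expressed more in female than in male mouse liver, a bias that depends on the sex pattern of growth hormone secretion acting through STAT5b.

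The 3 genes lie on the plus strand of chromosome 7 in GRCm38.p6, Cyp2b10 at positions 25897658 to 25926624, Cyp2b13 at 26061388 to 26096197 and Cyp2b9 at 26173350 to 26210661. The pseudogenes Cyp2b28-ps, Cyp2b27-ps and Cyp2b26-ps lie among them. The promoter windows of all 3 (3 of 3 members matched; RefSeq sequence, GRCm38.p6, plus strand) are shown because they show how close Cyp2b9 and Cyp2b13 are to each other and how far both are from Cyp2b10. Each holds 250 bases before and 50 after the start, from chr7:25897408-25897707 for Cyp2b10, chr7:26173159-26173458 for Cyp2b9 and chr7:26061245-26061544 for Cyp2b13. For Cyp2b9 and Cyp2b13 the start that the windows use lies inside the annotated gene. In Cyp2b10 the capitals mark CATAAA, and in the other two the capitals mark the bases at which Cyp2b9 and Cyp2b13 differ.
Cyp2b10: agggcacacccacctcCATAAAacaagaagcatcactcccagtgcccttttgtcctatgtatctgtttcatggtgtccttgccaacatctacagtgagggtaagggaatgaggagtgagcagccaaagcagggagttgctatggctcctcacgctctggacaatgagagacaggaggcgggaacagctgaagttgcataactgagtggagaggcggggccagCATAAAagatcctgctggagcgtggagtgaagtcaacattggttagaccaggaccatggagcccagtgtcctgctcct
Cyp2b9: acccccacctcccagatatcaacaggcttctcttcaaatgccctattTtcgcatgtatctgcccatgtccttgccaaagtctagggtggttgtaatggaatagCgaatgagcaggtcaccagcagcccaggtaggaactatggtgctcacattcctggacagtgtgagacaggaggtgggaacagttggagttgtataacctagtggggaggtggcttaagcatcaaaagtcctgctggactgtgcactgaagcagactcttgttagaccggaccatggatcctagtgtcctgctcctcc
Cyp2b13: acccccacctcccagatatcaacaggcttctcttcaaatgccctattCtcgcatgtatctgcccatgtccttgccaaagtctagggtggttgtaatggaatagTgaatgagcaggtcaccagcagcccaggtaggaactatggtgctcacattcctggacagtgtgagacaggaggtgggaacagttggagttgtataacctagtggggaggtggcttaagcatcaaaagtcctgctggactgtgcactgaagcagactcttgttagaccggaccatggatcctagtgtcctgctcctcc

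The Cyp2b9 and Cyp2b13 windows were identical at 298 of 300 bases (99.3%). The substitutions were T48C and C104T, with the Cyp2b9 base first and positions counted from 1 at the 5′ end of the window. Cyp2b10 matched each of them at 218 of 289 aligned bases (75.4%). CATAAA, searched on both strands like all motifs here, began at positions 17 and 223 of the Cyp2b10 window and was not in the others, and 11.85% of 32851 RefSeq promoter windows of this length hold it. AGGTCA, the core site of many nuclear receptors, began at position 113 in Cyp2b9 and in Cyp2b13 and was not in the Cyp2b10 window (16.255% of promoters hold it). AGGTCA repeated after 4 bases of any kind, a motif that contains AGGTCA (0.015% of promoters), TTCNNNGAA, the STAT5 motif (8.298%), and TATAAA (13.616%) were in none of the 3 windows. Sequence outside these windows was not searched, so a motif missing here may still lie elsewhere near the gene.

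Arrays fell into 4 runs by the run codes in the labels, with 54, 36, 18 and 134 arrays in runs A to D, and each treated group was set against the control set of its own run and vehicle. Run A held the least intact RNA, with integrity numbers of 4.7 to 7.8 where they are given, against 7.1 to 9.4 over the other runs. Median signal per array was 69.35 to 136.7, and group sizes limit how precise each value is. The hepatocyte genes Alb, Apoa1, Ttr, Cps1 and Tat had log2 signals of 13.23 to 17.11 on all 242 arrays. 1 array stood apart in all 3 members, 1,2-Dibromoethane replicate 3. There the log2 signals differed from the mean of the group's other 3 arrays by -3.02 for Cyp2b10, -2.87 for Cyp2b9 and -5.05 for Cyp2b13. On that array 3724 genes lay at least 2-fold from that mean, against a median of 1634 (1050 to 5300) on the other 241 arrays, 2 of which were higher.

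All values below are log2 of signal plus a pseudocount of 17.3. A gene was called where limma's Benjamini-Hochberg adjusted p, taken over all 18193 genes, was under 0.05 and the fold was at least 1.5, and "rose" and "fell" are used only of calls. Values after ± are standard errors of the fitted log2 change unless SD is written. In whole liver, fewer cells of a type and less RNA per cell cannot be told apart.

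Across the 46 treated groups, Cyp2b10 rose in 6 and fell in 0. Cyp2b13 rose in 1 group and fell in 4, and Cyp2b9 rose in 0 and fell in 2. The 6 rises of Cyp2b10 came from 3 chemicals, namely 4 of the 5 doses of 1,4-Dichlorobenzene, Malathion and 1,5-Naphthalenediamine. The falls of Cyp2b13 came from Methylene Chloride (3 doses) and 1,2,3-Trichloropropane (1 dose), those of Cyp2b9 from Methylene Chloride alone, and the rise of Cyp2b13 from the highest dose of Propylene glycol mono-t-butyl ether. In no group was Cyp2b10 called together with Cyp2b9 or Cyp2b13, and both groups in which Cyp2b9 fell were groups in which Cyp2b13 fell.

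For comparison, 58 of the 18193 genes (0.319%) rose in at least 6 groups, 84 (0.462%) fell in at least 4 and 661 (3.63%) fell in at least 2, while 14317 (78.7%) were called in none. At an unadjusted p under 0.05 without a fold threshold, Cyp2b10 and Cyp2b13 passed in 14 groups each and Cyp2b9 in 4. That count was not taken over all genes, so it does not show whether these numbers are unusual. In the groups without a call the log2 change ran from -1.10 to 2.41 for Cyp2b10 (40 groups, median 0.23), from -1.69 to 0.99 for Cyp2b13 (41 groups) and from -0.75 to 0.26 for Cyp2b9 (44 groups).

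**Figure D1:**
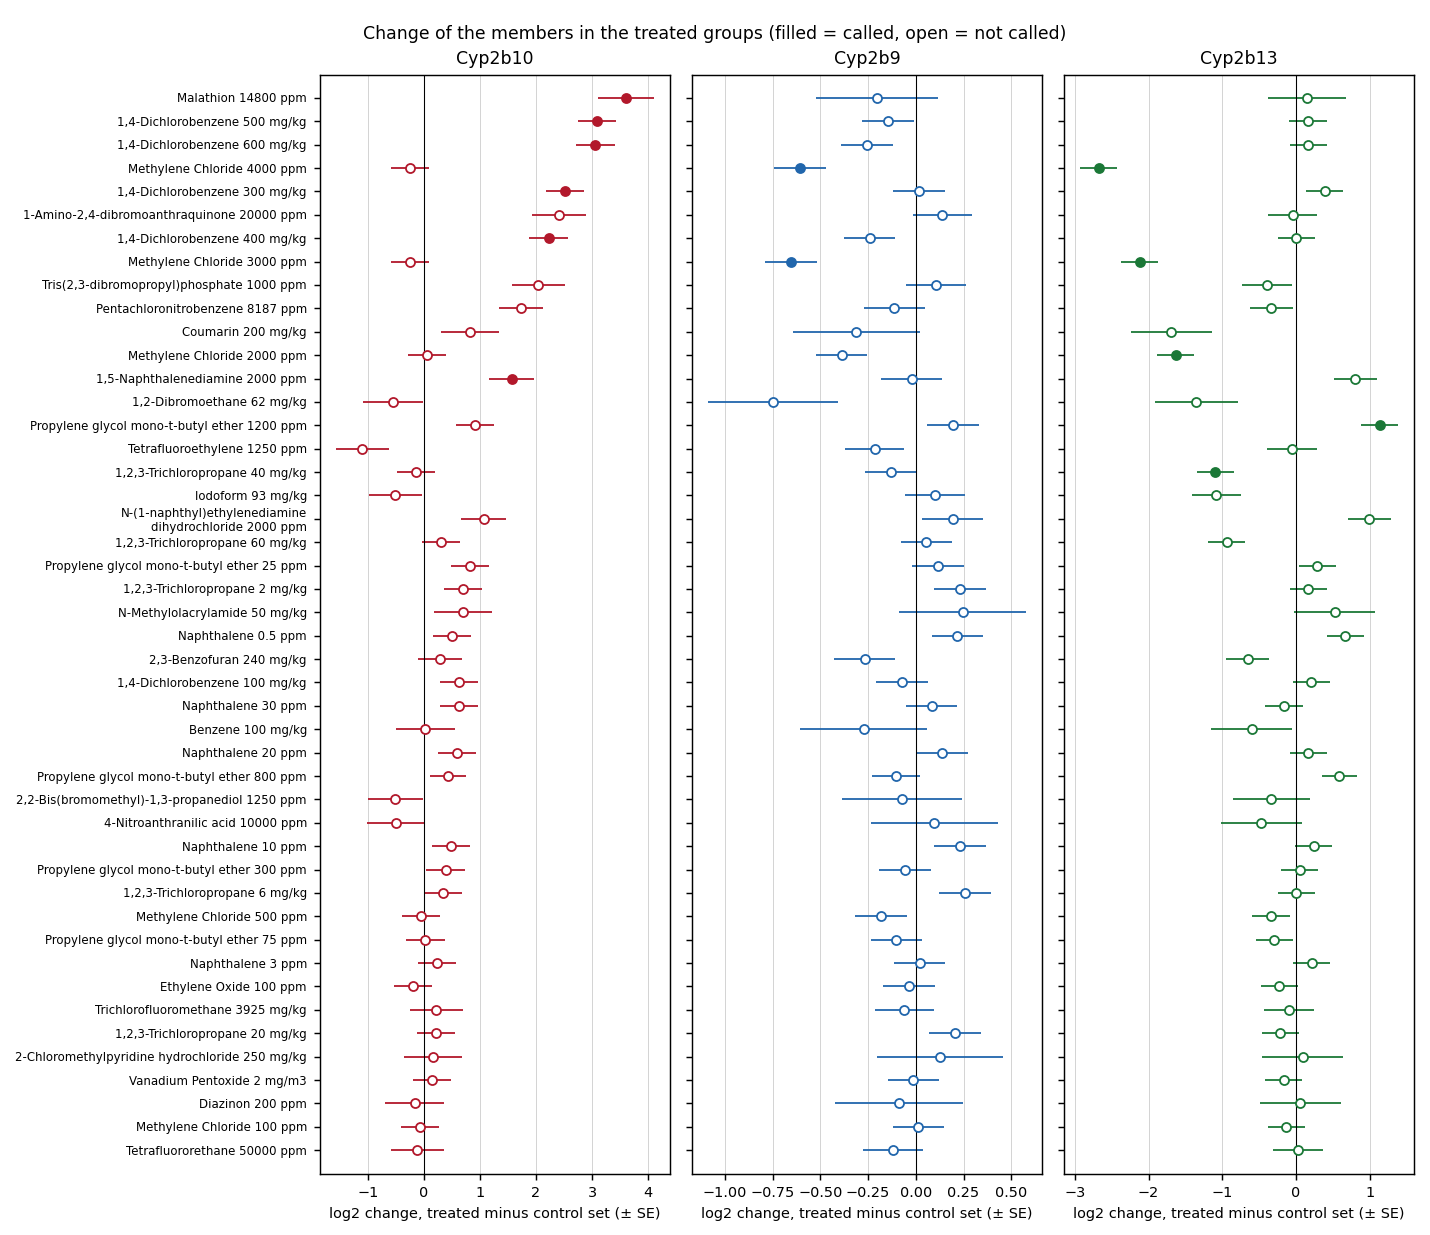
Fitted log2 change ± SE of Cyp2b10, Cyp2b9 and Cyp2b13 in each of the 46 treated groups against its control set, with 1 panel per gene and x axes that differ between panels. Filled points were called by limma. Cyp2b10 has its called points only to the right of 0, Cyp2b9 only to the left, and Cyp2b13 on both sides.

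Cyp2b10 rose 4.67- to 8.52-fold in livers of mice given 300 mg/kg or more of 1,4-Dichlorobenzene, a chlorinated benzene sold as mothballs and deodorant blocks. The call did not extend to 100 mg/kg. Cyp2b10 read 11.37, 12.22, 11.01, 12.10 and 11.80 in the 5 corn oil controls of set CCO5 and 12.20, 12.35, 12.50 and 12.28 in the 4 livers at 100 mg/kg. These 2 groups overlapped by a single control liver, and the change of 0.63 ± 0.34 was not called (adjusted p = 0.66). Signals were 13.28, 14.65, 14.85 and 14.12 at 300 mg/kg and 13.92, 13.74, 13.85 and 14.19 at 400 mg/kg. At 500 mg/kg they were 14.70, 14.49, 14.98 and 14.99, and at 600 mg/kg 14.54, 14.56, 15.07 and 14.87.

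Every liver from 300 mg/kg upward lay above every control. At 300, 400, 500 and 600 mg/kg, 2.5%, 1.7%, 2.69% and 2.52% of genes had all treated livers above all controls. The changes were 2.52 ± 0.34 at 300 mg/kg (5.75-fold, adjusted p = 7.53e-08), 2.22 ± 0.34 at 400 mg/kg (4.67-fold, 6.75e-06), 3.09 ± 0.34 at 500 mg/kg (8.52-fold, 3.01e-11) and 3.06 ± 0.34 at 600 mg/kg (8.34-fold, 2.61e-11). In these 4 groups 0.731%, 0.308%, 0.555% and 0.528% of all genes rose, in order of dose. The linear trend over control and doses in equal steps was 3.20 ± 0.29 from control to the highest dose (9.17-fold, adjusted p = 1.49e-15, 1.1% of genes called). Livers at 300 and 400 mg/kg overlapped each other, as did those at 500 and 600 mg/kg, and the lowest of the 4 livers at 300 mg/kg lay below all livers of the 3 higher doses.

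Cyp2b9 and Cyp2b13 were not called at any dose of 1,4-Dichlorobenzene. Cyp2b9 changed by -0.26 to 0.02 and Cyp2b13 by 0.00 to 0.39 over the 5 doses, and both overlapped the controls at each dose. Their trends were -0.25 ± 0.12 for Cyp2b9 and 0.04 ± 0.22 for Cyp2b13.

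**Figure D2:**
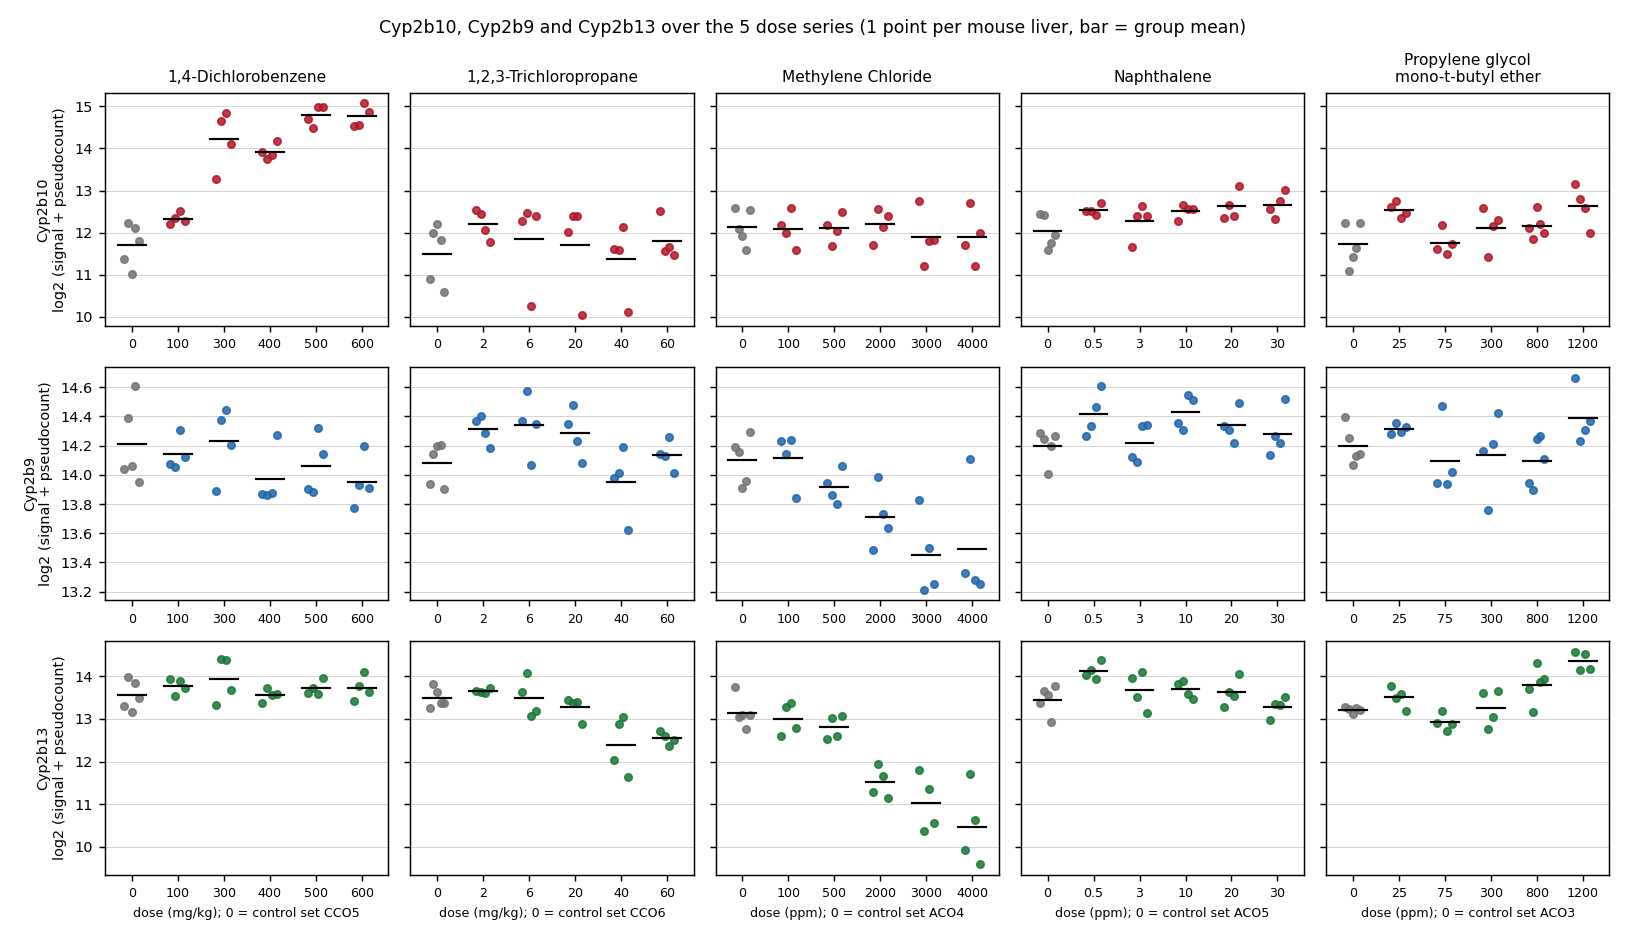
Log2 signal of Cyp2b10, Cyp2b9 and Cyp2b13 (rows) by dose of 5 chemicals (columns), 1 point per liver, bars at group means, with the control set in grey at dose 0. Cyp2b10 is high from 300 mg/kg of 1,4-Dichlorobenzene, Cyp2b13 is low from 2000 ppm of Methylene Chloride, and Cyp2b9 is lower there by a smaller step.

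Malathion, an organophosphate insecticide, gave the largest Cyp2b10 change of the 46 groups. Cyp2b10 read 15.37, 15.24, 14.98, 15.02 and 14.86 in the 5 treated livers, against 11.86, 11.53, 11.57 and 10.80 in the 4 chow controls of set FCO2. The groups did not overlap, and 5.33% of genes had all treated livers above all controls. The change was 3.60 ± 0.50 (12.1-fold, adjusted p = 3.03e-06, 2.33% of genes rose). The 2 run codes of run A each held both groups, and the difference within them was 3.89 (2 treated and 3 control livers) and 3.43 (3 treated and 1 control liver). The rise was also called without 1,2-Dibromoethane replicate 3, which lies in the same run. RNA integrity numbers were 4.7 to 6.5 in 4 treated livers, all below the 6.7 to 7.2 of the controls, and the change was 3.74 without the 2 treated livers under 5. In the same livers Cyp2b9 changed by -0.20 ± 0.32 and Cyp2b13 by 0.15 ± 0.53, neither called.

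1,5-Naphthalenediamine, a naphthalene with an amino group on each ring, was the third chemical with a call. Cyp2b10 read 12.05, 12.86 and 13.03 in treated livers, against 11.59, 10.17 and 11.48 in the chow controls of set RodentChow. All treated livers lay above all controls, as was the case for 9.55% of genes. The change was 1.56 ± 0.39 (2.96-fold, adjusted p = 0.0421, 1.2% of genes rose). The call is close to the threshold: it was lost without RodentChow replicate 2 or 3 and without 1,5-Naphthalenediamine replicate 2 or 3, with changes of 1.11 to 1.86 over all arrays left out in turn, and 1,5-Naphthalenediamine replicate 2 was 1 of 2 arrays whose signals had to be rescaled. Cyp2b13 read 13.50, 14.18 and 13.75 in treated livers, against 13.25, 12.35 and 13.42 in controls, a change of 0.80 that was not called (adjusted p = 0.137).

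In 4 further groups all Cyp2b10 values lay above the controls without a call. With 1-Amino-2,4-dibromoanthraquinone, an anthraquinone dye intermediate, Cyp2b10 read 12.20, 12.85, 13.25 and 13.49 in treated livers, against 11.21, 10.39, 11.07 and 9.49 in set FCO1. The change was 2.41 ± 0.47 (adjusted p = 0.0949), and 1.57% of genes had all treated livers above all controls in that comparison. With Pentachloronitrobenzene, a fungicide, Cyp2b10 read 12.52, 12.53 and 13.40 in treated livers, against 11.59, 10.17 and 11.48 in set RodentChow. That change was 1.74 ± 0.39 (adjusted p = 0.0767, 6.81% of genes all above). With 2,3-Benzofuran, a heterocycle given in corn oil, Cyp2b10 read 11.81, 11.79 and 12.11 in treated livers, against 11.54, 11.69 and 11.60 in set CornOil, a change of 0.29 ± 0.39 (adjusted p = 0.728, 11.4% of genes all above). Cyp2b9 read 13.72 to 13.91 in those treated livers, all below the 13.98 to 14.17 of CornOil and not called (17.3% of genes all below). The fourth was 25 ppm of Propylene glycol mono-t-butyl ether, with Cyp2b10 at 12.62, 12.74, 12.34 and 12.47, against 12.23, 11.08, 11.43, 11.63 and 12.24 in set ACO3 (2.95% of genes all above). RNA integrity numbers were 8.9 in the 1-Amino-2,4-dibromoanthraquinone livers that have one and 8.2 to 8.7 in FCO1, and the log2 ratio of 3′ to 5′ Gapdh probe sets, which reads RNA degradation, was -0.40 to -0.38 with Pentachloronitrobenzene and -0.33 to -0.22 in its controls. The part of these was not tested.

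Tris(2,3-dibromopropyl)phosphate, a flame retardant, gave Cyp2b10 values that were spread widely. They were 13.42, 13.96, 12.14 and 10.79 in treated livers, against 11.21, 10.39, 11.07 and 9.49 in FCO1, with the lowest treated liver inside the control range. The change of 2.04 ± 0.47 was not called (adjusted p = 0.489). The same livers ordered alike for Cyp2b13, with 13.31, 14.00, 12.39 and 11.46. Tetrafluoroethylene, the monomer of a fluoropolymer, was the only group with every Cyp2b10 value below its controls. Cyp2b10 read 11.47, 11.21, 11.61 and 10.87 in treated livers, against 12.63, 12.82, 12.13 and 11.97 in the air controls of set ACO1, a change of -1.10 ± 0.47 that was not called (adjusted p = 0.395, 1.46% of genes all below). RNA integrity numbers there were 8.4 to 8.6 in treated livers and 8.7 to 8.9 in controls.

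**Figure D3:**
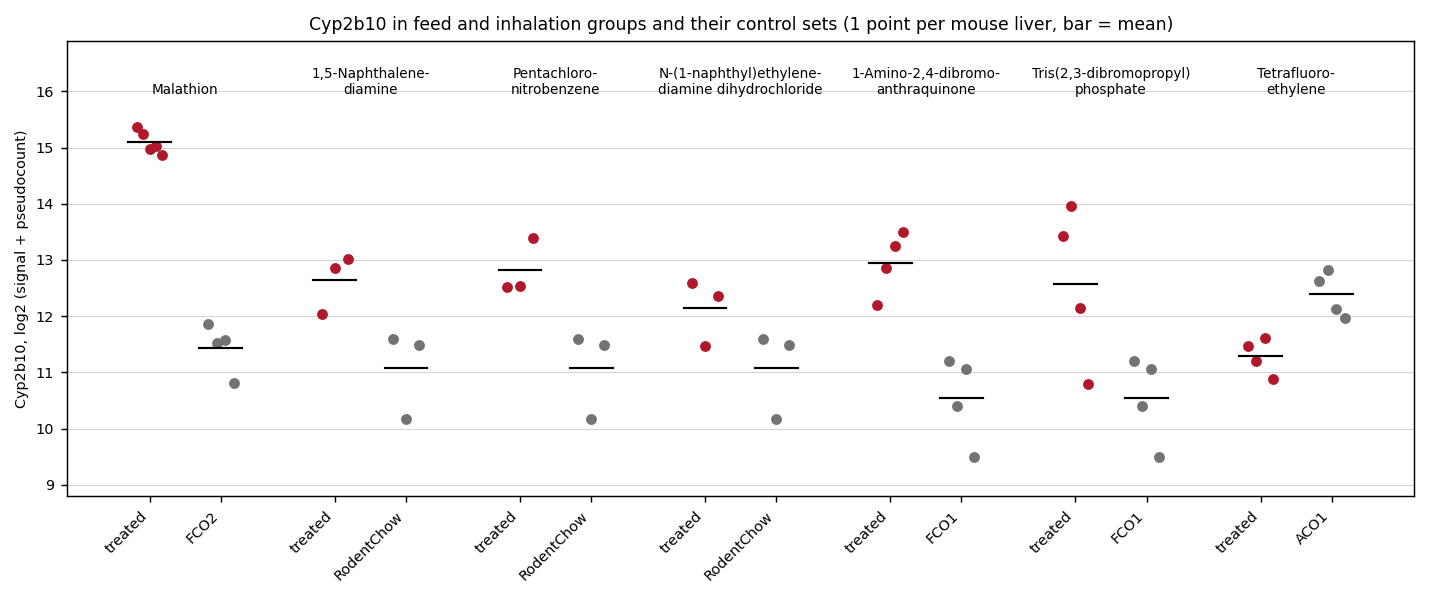
Log2 signal of Cyp2b10 in livers of 7 single-dose groups, each drawn left of its control set, 1 point per liver with bars at group means. Malathion stands furthest from its controls, with treated livers at 14.86 to 15.37, and Tetrafluoroethylene lies below its controls.

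The other 2 probe sets of Cyp2b10 gave changes of like size. The 1,4-Dichlorobenzene trend was 3.20, 3.48 and 3.84 for the probe sets in falling order of mean signal, and the Malathion change was 3.60, 4.00 and 4.23. With p-values adjusted over all 45037 probe sets that are not controls, they rose in 5, 6 and 5 groups. The group in which they parted was 1,5-Naphthalenediamine, with changes of 1.56 (adjusted p = 0.0574), 1.76 (0.0451) and 1.58 (0.0612). Probe sets whose names end in _s_at can read more than 1 transcript, so a part of their signal may come from a close relative of Cyp2b10. The brightest, which is read for Cyp2b10 elsewhere in this text, and the next have such names, and the dimmest does not.

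Cyp2b13 fell steeply with inhaled Methylene Chloride, a chlorinated solvent, from 2000 ppm upward. Cyp2b13 read 13.74, 13.04, 13.09, 12.76 and 13.09 in the air controls of set ACO4, 12.60, 13.28, 13.38 and 12.78 at 100 ppm, and 12.53, 13.01, 12.60 and 13.07 at 500 ppm. These 2 doses overlapped the controls, with changes of -0.13 and -0.34 that were not called. Signals were 11.28, 11.94, 11.67 and 11.15 at 2000 ppm, 11.80, 10.38, 11.35 and 10.57 at 3000 ppm, and 9.93, 11.71, 10.62 and 9.60 at 4000 ppm. Every liver of the 3 higher doses lay below every control, and neighbouring doses among those 3 overlapped each other. At 2000, 3000 and 4000 ppm, 2.17%, 2.74% and 3.69% of genes had all treated livers below all controls.

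The changes were -1.63 ± 0.25 at 2000 ppm (3.1-fold lower, adjusted p = 9.34e-06), -2.12 ± 0.25 at 3000 ppm (4.35-fold lower, 1.3e-09) and -2.68 ± 0.25 at 4000 ppm (6.4-fold lower, 1.09e-14). Of all genes, 0.445%, 1.54% and 1.75% fell in these groups, in order of dose. The trend was -2.95 ± 0.22 from control to the highest dose (7.72-fold lower, adjusted p = 3.57e-21, 3.49% of genes called). Cyp2b10 was not called at any dose of Methylene Chloride, with changes of -0.25 to 0.06.

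Cyp2b9 moved the same way as Cyp2b13 under Methylene Chloride but by a smaller step. Cyp2b9 read 14.19, 14.15, 13.91, 13.95 and 14.29 in ACO4. At 2000 ppm it read 13.48, 13.99, 13.73 and 13.64, a change of -0.39 that was not called (adjusted p = 0.137). At 3000 ppm it read 13.83, 13.21, 13.50 and 13.25, and at 4000 ppm 13.33, 14.11, 13.28 and 13.25. All livers at 3000 ppm lay below all controls (2.74% of genes all below). At 4000 ppm replicate 2, which was also the highest of its group for Cyp2b13, lay among the controls. The changes were -0.65 ± 0.14 at 3000 ppm (1.57-fold lower, adjusted p = 0.000806) and -0.61 ± 0.14 at 4000 ppm (1.52-fold lower, 0.00149), and the trend was -0.75 ± 0.12 (7.51e-07). The fold at 4000 ppm is so near the threshold of 1.5 that the call was lost when ACO4 replicate 1 or 5, or Methylene Chloride 4000 ppm replicate 1, 3 or 4, was left out, with changes of -0.81 to -0.53. The call at 3000 ppm was lost without its replicate 2, with changes of -0.78 to -0.57.

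1,2,3-Trichloropropane, a chlorinated solvent given by gavage, was the other chemical with which Cyp2b13 fell, at 40 mg/kg. Cyp2b13 read 13.27, 13.81, 13.64, 13.37 and 13.37 in the corn oil controls of set CCO6, 13.67, 13.63, 13.61 and 13.72 at 2 mg/kg, and 13.62, 14.07, 13.08 and 13.19 at 6 mg/kg. At 20 mg/kg it read 13.44, 13.37, 13.40 and 12.88. These 3 doses overlapped the controls, with changes of 0.17, 0.00 and -0.22. At 40 mg/kg it read 12.03, 12.88, 13.04 and 11.63, and at 60 mg/kg 12.71, 12.60, 12.37 and 12.51, all below the controls. Of all genes 4.85% had all livers at 40 mg/kg below all controls. The change was -1.10 ± 0.25 at 40 mg/kg (2.14-fold lower, adjusted p = 0.00888, 0.835% of genes fell) and -0.94 ± 0.25 at 60 mg/kg, just past the threshold and not called (adjusted p = 0.0502, 3.14% of genes all below). The trend was -1.24 ± 0.22 (adjusted p = 9.13e-05, 0.583% of genes called). The call at 40 mg/kg was lost without replicate 4 of that dose (adjusted p = 0.0805). Cyp2b10 and Cyp2b9 were not called at any of the 5 doses, with changes of -0.14 to 0.70 and of -0.13 to 0.26.

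Propylene glycol mono-t-butyl ether, a glycol ether solvent, was the only chemical with which Cyp2b13 rose. Cyp2b13 read 13.27, 13.23, 13.11, 13.26 and 13.22 in the air controls of set ACO3. It changed by 0.29 at 25 ppm, -0.29 at 75 ppm and 0.05 at 300 ppm, with signals of 12.72 to 13.76 over these 3 doses. At 800 ppm it read 13.71, 13.17, 14.31, 13.86 and 13.94 (0.58 ± 0.24, adjusted p = 0.542), with 1 of 5 livers inside the control range. At 1200 ppm it read 14.57, 14.15, 14.51 and 14.18. The change at 1200 ppm was 1.14 ± 0.25 (2.2-fold, adjusted p = 0.0142, 0.121% of genes rose) and the trend was 0.99 ± 0.21 (adjusted p = 0.0066, 0.253% of genes called). The call at 1200 ppm was lost without its replicate 1 (adjusted p = 0.138) or 3 (0.0744) and without ACO3 replicate 3 (0.0518), and the call of the trend without replicate 1 (0.0501). RNA integrity numbers were 9.1 to 9.2 at 1200 ppm and 8.7 to 8.8 in the controls, and their part was not tested. Cyp2b10 changed by 0.91 ± 0.34 at 1200 ppm and by 0.82 ± 0.34 at 25 ppm, neither called (adjusted p = 0.334 and 0.494).

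Inhaled Naphthalene changed none of the 3 genes past the test at any dose or in the trend. Cyp2b13 read 14.03, 14.14, 13.93 and 14.38 at the lowest dose of 0.5 ppm, against 13.38, 13.66, 13.55, 12.92 and 13.76 in the air controls of set ACO5. All 4 livers lay above the controls, with a change of 0.67 ± 0.25 (adjusted p = 0.104, 2.79% of genes all above). The RNA integrity number was 9.2 in the 3 of these livers that have one and 8.5 to 8.9 in the controls, and its part was not tested. At 3, 10, 20 and 30 ppm the changes of Cyp2b13 were 0.21, 0.24, 0.17 and -0.16, with overlap at each dose. Cyp2b10 changed by 0.23 to 0.63 over the 5 doses and overlapped the controls at each. Cyp2b9 read 14.31 to 14.54 at 10 ppm, all above the 14.00 to 14.28 of ACO5 and not called (1.96% of genes all above). RNA integrity numbers were 9.1 to 9.3 at 10 ppm, also above those of the controls, and their part was not tested.

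The lowest Cyp2b13 changes without a call came from 3 single-dose gavage groups. With Coumarin, a plant benzopyrone, Cyp2b13 read 11.34, 11.17, 10.80 and 12.13 in treated livers, against 13.03, 13.20, 12.94 and 13.05 in set CCO2. All treated livers lay below all controls, and the change of -1.69 ± 0.55 was not called (adjusted p = 0.247, 1.62% of genes all below). The differences within the 2 run codes were -1.74 and -1.65. When 1,2-Dibromoethane replicate 3, which shares that run's estimate of spread, was left out, Cyp2b13 was called with Coumarin (adjusted p = 0.00104, 0.467% of genes called). That alternative was chosen after seeing the data, because the array was extreme in the members themselves. Leaving it out narrowed the standard error to 0.29 with the change still at -1.69, so this call is not an independent test. Coumarin livers had RNA integrity numbers of 7.2 to 7.8, against 6.6 to 7.1 in controls.

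With Iodoform Cyp2b13 read 13.01, 12.17, 12.22 and 11.95 in treated livers, against 13.53, 13.50, 13.38 and 13.27 in set CCO4, all below the controls (-1.08 ± 0.34, adjusted p = 0.677, 2.75% of genes all below). RNA integrity numbers there were 8.7 to 8.9 in treated livers and 8.3 to 8.6 in controls. With 1,2-Dibromoethane Cyp2b13 read 13.04, 13.06, 7.82 and 12.49, against the same set CCO2, and the change of -1.36 became -0.09 without replicate 3. Likewise the Cyp2b9 change of -0.75 became -0.03. N-(1-naphthyl)ethylenediamine dihydrochloride was the opposite case, with Cyp2b13 at 14.19, 13.90 and 13.90 in treated livers, against 13.25, 12.35 and 13.42 in set RodentChow (0.99 ± 0.29, adjusted p = 0.115, 10.2% of genes all above). These livers had RNA integrity numbers of 7.7 to 8.1, all below the 8.8 to 9.1 of the controls, and log2 ratios of 3′ to 5′ Gapdh of -0.06 to 0.16, all above the -0.33 to -0.22 of the controls, and their part was not tested.

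Among the chemicals, 2 pairs are close in structure and were given at the same dose, by the same route and for the same time. 1,5-Naphthalenediamine carries an amino group on each ring of naphthalene, while N-(1-naphthyl)ethylenediamine carries an ethylenediamine chain on a single ring. The difference of 1,5-Naphthalenediamine over N-(1-naphthyl)ethylenediamine dihydrochloride was 0.50 for Cyp2b10 (95% interval -0.34 to 1.34, adjusted p = 0.632), -0.22 for Cyp2b9 (-0.56 to 0.13) and -0.19 for Cyp2b13 (-0.82 to 0.44). None was called, with 0.896% of genes called. RNA integrity numbers were 8.8 to 8.9 in the 1,5-Naphthalenediamine livers and 7.7 to 8.1 in the others. 1,4-Dichlorobenzene is benzene with a chlorine on each of a pair of opposite carbons. At 100 mg/kg, the change with 1,4-Dichlorobenzene exceeded the change with Benzene by 0.61 for Cyp2b10 (-0.53 to 1.75), 0.20 for Cyp2b9 (-0.39 to 0.79) and 0.81 for Cyp2b13 (-0.21 to 1.83), none called, with 0% of genes called. The intervals are wide and do not show that the chemicals of a pair act alike. The pair of 1,4-Dichlorobenzene and Benzene lies in different runs, each change being taken against its own controls.

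Among the 14 control sets, mean log2 signal ran from 9.93 to 12.39 for Cyp2b10, from 12.40 to 13.76 for Cyp2b13 and from 13.60 to 14.21 for Cyp2b9. Differences between runs were not tested, since run and set cannot be told apart. Within runs, no member was called between control sets, although Cyp2b10 was between ACO1 and CCO4 once dim genes were left out (adjusted p = 0.0383). The widest gaps were for Cyp2b10. Set CCO3 read 10.07, 10.06, 9.19 and 10.40 and set WCO1 9.93, 11.68, 11.77 and 11.98, both labelled distilled water (-1.37 ± 0.52, adjusted p = 0.776, 0% of genes called). The code of CCO3 is like those of the corn oil sets, so its vehicle rests on the label alone. The air set ACO1 lay above the corn oil set CCO4, which read 11.77, 11.62, 11.84 and 9.89 (1.11 ± 0.47, adjusted p = 0.074, 28.5% of genes called).

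Ordered by group mean within a run, most neighbours overlapped. These steps were counted for the members alone and not for all genes, so whether the counts are unusual was not tested. For Cyp2b10 the top group was Malathion in run A (15.10), 1-Amino-2,4-dibromoanthraquinone in run B (12.95), Pentachloronitrobenzene in run C (12.82) and 1,4-Dichlorobenzene at 500 mg/kg in run D (14.79). In run D the 4 higher doses of 1,4-Dichlorobenzene took the first 4 ranks, and the step below them was the only 1 of 31 between neighbours without overlap. In run A 1 of 12 steps and in run C 1 of 5 steps lacked overlap, and in run B 0 of 8 steps. For Cyp2b13 run D ran from Methylene Chloride at 4000 ppm (10.46) to 1200 ppm of Propylene glycol mono-t-butyl ether (14.35) with 0 of 31 steps free of overlap. For Cyp2b9 no step in any run was free of overlap, and run D ran from 13.45 with Methylene Chloride at 3000 ppm to 14.43 with Naphthalene at 10 ppm.

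Genes known as targets of CAR or of the related pregnane X receptor PXR, 22 of 25 listed genes measured, were counted in the same comparisons. With 1,4-Dichlorobenzene 9, 8, 12 and 10 of them rose at 300, 400, 500 and 600 mg/kg, with medians of 0.49, 0.40, 0.78 and 0.68 on the log2 scale, where 0.731%, 0.308%, 0.555% and 0.528% of all genes rose. With Malathion 13 rose (median 0.87, 2.33% of all genes) and with 1,5-Naphthalenediamine 9 rose (median 0.31, 1.2% of all genes). Fitted with the 2 groups alone the counts were 3, 3, 4 and 4 over the doses of 1,4-Dichlorobenzene and 0 with 1,5-Naphthalenediamine, where values as deposited gave 3. The median of all genes lay between -0.12 and 0.05 in each of the 11 comparisons in which a member was called. Cyp2c55, a P450 of arachidonic acid and drug oxidation, rose by 2.99, 2.86, 4.11 and 4.64 over those doses and by 5.61 with Malathion. Gstm3, a glutathione transferase, rose by 3.03 at 600 mg/kg, by 3.30 with Malathion and by 3.28 with 1,5-Naphthalenediamine. Abcc4, an efflux transporter, rose by 3.06, 4.12 and 2.92 in those same comparisons.

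In the comparisons where Cyp2b13 was called, 1 to 5 members of the list rose, and the share of all genes that rose differed between them. With 1,2,3-Trichloropropane at 40 mg/kg 5 of the 22 rose (median 0.35, 0.544% of all genes), among them Gsta2, a glutathione transferase (2.40), Abcc4 (1.34) and Ephx1, microsomal epoxide hydrolase (0.65). With Methylene Chloride at 2000, 3000 and 4000 ppm 1, 2 and 4 rose (medians 0.03, 0.09 and 0.08), where 0.379%, 1.51% and 1.17% of all genes rose. Of these Ephx1 rose by 0.61, 0.91 and 0.86, and Slco1a4, an uptake transporter, fell by 1.04 at 3000 ppm while Ces2a, a carboxylesterase, fell by 1.14 at 4000 ppm. With 1200 ppm of Propylene glycol mono-t-butyl ether 3 rose (median 0.37, 0.121% of all genes), namely Cyp2c55 (2.90), Ces2a (1.14) and Cyp2c54 (0.61). With the 2 groups alone the counts were 0 with 1,2,3-Trichloropropane, 0 at each dose of Methylene Chloride and 1 with the ether. Whether the lists differed between chemicals was not tested.

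**Figure D4:**
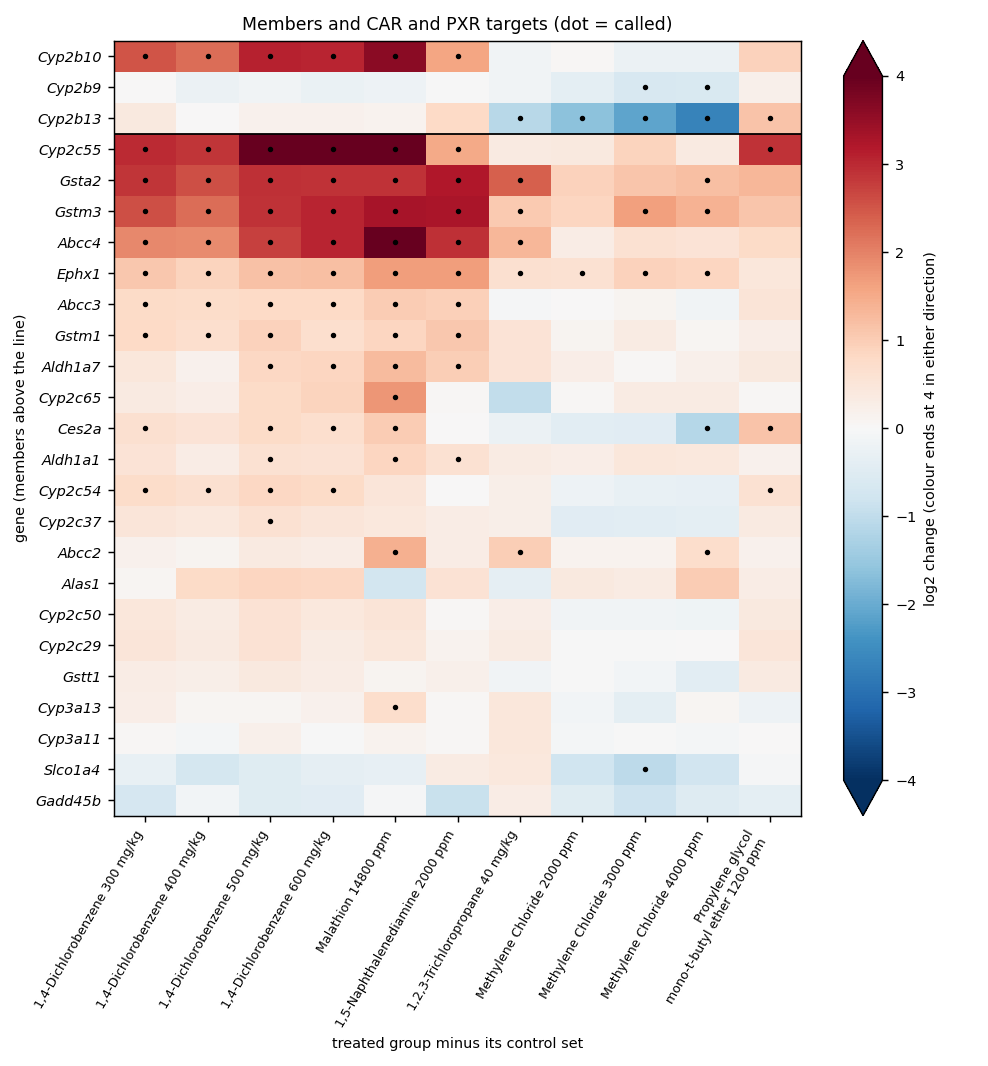
Log2 change of the 3 members and of 22 targets of CAR or PXR (rows) in the 11 comparisons in which a member was called (columns). Dots mark calls and the colour scale ends at ±4. Cyp2b10 and Cyp2c55 share deep colours in the 1,4-Dichlorobenzene and Malathion columns, and Cyp2b9 and Cyp2b13 do not.

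Of 10 genes of CAR signalling, 2 fell with Malathion (2.02% of all genes) and 1 with 1,4-Dichlorobenzene at 300 mg/kg (1.27%). From the same list 1 rose with 1,5-Naphthalenediamine (1.2%) and 1 with 1,2,3-Trichloropropane at 40 mg/kg (0.544%). Nr1i3, which encodes CAR, rose only with 1,5-Naphthalenediamine (0.64), and Nr1i2, which encodes PXR, was called in none of these comparisons. Egfr, the receptor whose signalling holds CAR in the cytoplasm, fell by 2.74 with Malathion and also fell with 1,4-Dichlorobenzene at 300 mg/kg. Foxo1, a transcription factor of gluconeogenesis that binds CAR, fell by 1.14 with Malathion. Ppargc1a, a coactivator of nuclear receptors, rose by 1.44 with 1,2,3-Trichloropropane at 40 mg/kg. No other gene of that list was called in the 11 comparisons.

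Other genes known for higher expression in female than in male mouse liver (16 of 24 listed genes measured) were counted beside Cyp2b9 and Cyp2b13. With Methylene Chloride 5 of 16 fell at each of 2000, 3000 and 4000 ppm and 1 rose at 4000 ppm, with medians of -0.76, -0.65 and -0.44. Of all genes 0.445%, 1.54% and 1.75% fell, and 1.17% rose at 4000 ppm. The count was 2 at 2000 ppm with values as deposited, 8 at 3000 ppm with pooled air controls, and 1, 2 and 2 in order of dose with the 2 groups alone. Sult3a1, a sulfotransferase, changed by -5.56, -4.86 and -5.60 in order of dose. Cyp3a16, a P450 of steroid and drug oxidation, fell at each of these doses, by 3.20 at 3000 ppm, and the transporter gene Slc22a26 changed by -1.76, -2.74 and -2.61, all called. With 1,2,3-Trichloropropane at 40 mg/kg 3 fell (0.835% of all genes), namely Sult2a2, a hydroxysteroid sulfotransferase (-3.46), Ntrk2, a neurotrophin receptor (-1.56), and Cyp17a1, the steroid hydroxylase (-1.29). With 1200 ppm of Propylene glycol mono-t-butyl ether Sult2a2 rose by 3.70, and with Malathion 3 rose and 4 fell, beside 2.33% and 2.02% of all genes. Sult3a1 was among the 4 that fell with Malathion (-5.95), in livers where Cyp2b9 and Cyp2b13 were not called.

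Of 15 measured genes known for higher expression in males (18 listed), 2 rose at each of these doses of Methylene Chloride, and 0, 1 and 2 fell at 2000, 3000 and 4000 ppm. Of all genes 0.379%, 1.51% and 1.17% rose and 0.445%, 1.54% and 1.75% fell at these doses. Cyp4a12a, a fatty acid hydroxylase, rose by 3.65, 1.93 and 2.29 and Cyp2d9, a steroid hydroxylase, by 1.40, 1.35 and 1.28, in order of dose. Serpina12, a serpin, fell by 2.13 at 3000 ppm and fell by 2.07 at 4000 ppm. Cyp2d9 also rose by 1.99, 2.27, 2.33 and 2.60 with 1,4-Dichlorobenzene at 300 to 600 mg/kg, where Cyp2b9 and Cyp2b13 were not called, while Slco1a1, an uptake transporter, fell by 2.57 at 300 mg/kg and fell by 3.77 at 600 mg/kg. With Malathion 1 of the 15 rose and 6 fell, beside 2.33% and 2.02% of all genes. With 1,5-Naphthalenediamine 2 rose and 4 fell, beside 1.2% and 2.18% of all genes. Of 12 genes of growth hormone signalling, 0, 2 and 4 fell with Methylene Chloride at 2000, 3000 and 4000 ppm (0.445%, 1.54% and 1.75% of all genes). At 4000 ppm these were Stat5a (-1.26), Stat5b (-0.69), the oestrogen receptor gene Esr1 (-0.72) and Foxa1 (-0.60). With Malathion 4 fell (2.02% of all genes), among them Socs2, a feedback inhibitor of cytokine signalling (-2.62), and Igf1, the main hepatic effector of growth hormone (-0.96).

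Of 10 listed neighbours in the Cyp2 cluster of chromosome 7, 5 were measured. Cyp2a12, Cyp2f2 and Cyp2s1 were called in none of the 46 groups, as was the case for 78.7% of all genes. Cyp2g1, an olfactory P450, fell with Methylene Chloride by 1.32 at 2000 ppm and by 0.98 at 3000 ppm, and Cyp2b19, a keratinocyte member of the Cyp2b family, rose by 1.55 at 4000 ppm from a low mean log2 signal of 5.83.

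Markers of other cell types and tissues were read in the same livers. The summed signal of 5 pancreas genes was 1310 to 1988 with Malathion, against 4091 to 4893 in controls, and 756 to 1408 with 1,5-Naphthalenediamine, against 3860 to 5259. It was 1918 to 2961 at 500 mg/kg and 1946 to 3382 at 600 mg/kg of 1,4-Dichlorobenzene, against 4094 to 6977, and 3144 to 4938 with Methylene Chloride at 4000 ppm, against 5496 to 7220. Of the 5, Cela1, an elastase, was the one called in these 5 comparisons (-2.04 to -0.60).

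The sum of 5 Kupffer cell genes was 2275 to 4703 with Malathion, against 4848 to 7208, 3800 to 5288 with 1,5-Naphthalenediamine, against 6008 to 7024, and 3668 to 4341 with Methylene Chloride at 3000 ppm, against 4992 to 6904, with none of the 5 called. The sum of 4 endothelial genes was 2609 to 3430 with Malathion, against 3645 to 4321, and 2003 to 2712 with 1,5-Naphthalenediamine, against 3108 to 4525, and Stab2, a scavenger receptor of sinusoidal endothelium, fell in both (-0.77 and -0.90) and at 3000 ppm of Methylene Chloride (-0.62). The sum of 3 erythroid genes was 1454 to 1663 and 1271 to 1855 with Methylene Chloride at 2000 and 3000 ppm, against 622 to 1134, where Alas2, the haem synthesis enzyme of erythroid cells, rose (1.03 and 0.93). It was 1006 to 1969 with 1200 ppm of Propylene glycol mono-t-butyl ether, against 588 to 958, with none of the 3 called. The sum of 4 endothelial genes at 600 mg/kg of 1,4-Dichlorobenzene was 2364 to 2934, against 3028 to 3995, with none of the 4 called. The sum of 4 bile duct genes was 235 to 396 with 1,5-Naphthalenediamine, against 460 to 633, and 348 to 426 at 400 mg/kg of 1,4-Dichlorobenzene, against 472 to 634, with none called. At 300 mg/kg, where that sum overlapped the controls, the bile duct keratin gene Krt19 fell by 1.53. With 1,2,3-Trichloropropane at 40 mg/kg the collagen gene Col1a1 fell by 1.23, the only 1 of 5 stellate and fibroblast genes called, and at 2000 ppm of Methylene Chloride Lep, the leptin gene of adipose tissue, rose by 1.12, the only 1 of 3 adipose genes called. The sums of both lists overlapped their controls. Of 5 hepatocyte genes none was called, with sums of 256331 to 278289 with 1,5-Naphthalenediamine, against 279990 to 298855 in controls. The log2 ratio of 3′ to 5′ Gapdh probe sets was -0.59 to -0.48 over the 1,4-Dichlorobenzene livers at 100 to 500 mg/kg, below the -0.41 to -0.12 of their controls, and overlapped them at 600 mg/kg. The calls of the members held with that ratio as a covariate, and the part of the cell type markers in the results was not tested.

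Between livers of the same group the 3 genes differed in how far they spread. The SD within groups was 0.60 for Cyp2b10, above that of 97.9% of the 9097 genes in the brighter part of all genes. It was 0.52 for Cyp2b13 (94.8%) and 0.28 for Cyp2b9 (47.9%). Without 1,2-Dibromoethane replicate 3 these were 0.57 (97.3%), 0.40 (84.0%) and 0.21 (19.9%). The 3 genes deviated together: over 241 arrays without that array, deviations from the group mean had a Pearson r of 0.57 between Cyp2b10 and Cyp2b13, 0.52 between Cyp2b10 and Cyp2b9 and 0.51 between Cyp2b9 and Cyp2b13 (0.62, 0.58 and 0.71 with it). Over the 60 group means, less the mean of their run, r was 0.75 between Cyp2b9 and Cyp2b13, 0.31 between Cyp2b10 and Cyp2b13 and 0.06 between Cyp2b10 and Cyp2b9. These are descriptions, since arrays share runs and control sets.

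**Figure D5:**
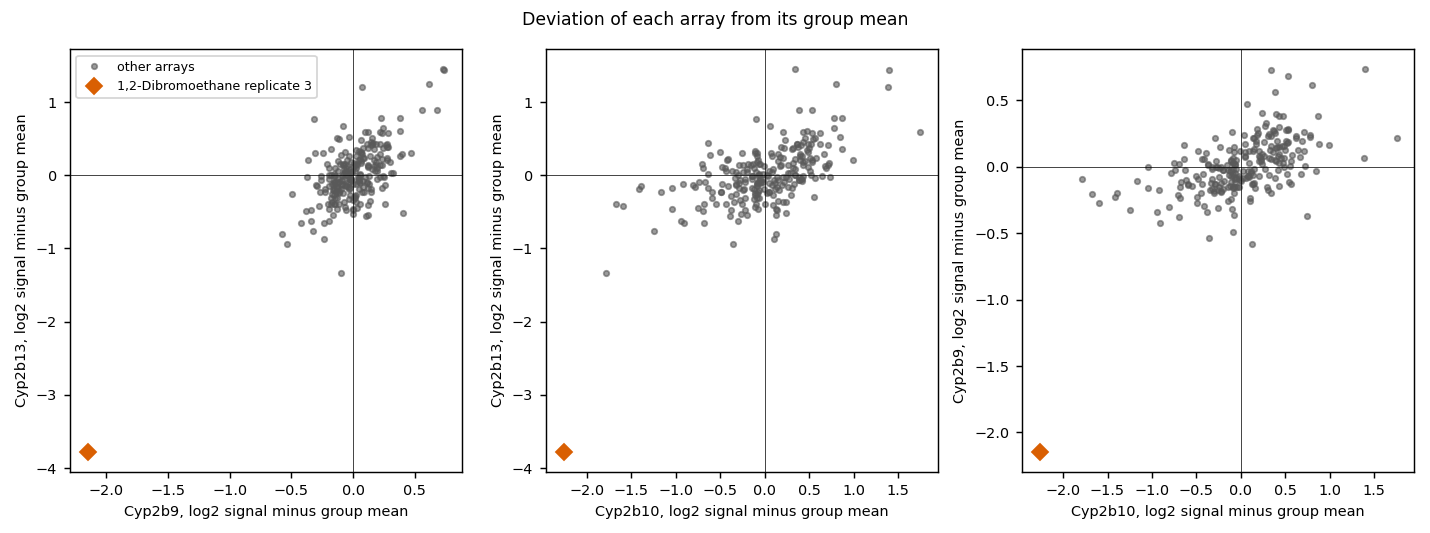
Deviation of each of 242 arrays from its group mean in log2 units, with 1 panel per pair of Cyp2b10, Cyp2b9 and Cyp2b13. The diamond is 1,2-Dibromoethane replicate 3, far below 0 for all 3 genes, and the other points rise together in each panel.

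By Pearson r over the 60 group means less the mean of their run, the genes most like Cyp2b10 were Cyp2c55 (0.86), 1700067K01Rik (0.83), Abcc3 (0.80), Gstt3 (0.79) and Pgap2 (0.77). Those most like Cyp2b9 were Cyp2b13 (0.75), Blmh (0.66), Hao2 (0.64), Sugct (0.64) and Fbxo9 (0.62). Those most like Cyp2b13 were Cyp2b9 (0.75), Ces2a (0.70), Fetub (0.69), Hamp2 (0.68) and Fhit (0.68). By deviations within groups over 242 arrays, the most like Cyp2b10 were Acss2 (0.70), Gstt3 (0.70), Tlcd2 (0.69), Pxmp2 (0.66) and Adssl1 (0.65). For Cyp2b13 they were Cyp2b9 (0.71), Gstt3 (0.67), Inmt (0.63), Pxmp2 (0.62) and Cyp2b10 (0.62). For Cyp2b9 they were Serpina6 (0.77), Hamp2 (0.75), Bphl (0.73), Cyp2b13 (0.71) and Cyp2c37 (0.71). The array that stood apart enters these values.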

How the data were processed

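Livers were measured on 242 arrays with 45101 probe sets (64 of them controls). Values are probe set signals that the authors deposited as linear intensity, with GCOS 1.0 named in the submitters' processing notes, and further steps are not given in the sources used here. 240 arrays had a trimmed mean (2% taken off both ends) of 500. The other 2 arrays (Vanadium Pentoxide replicate 4 and 1,5-Naphthalenediamine replicate 2) were multiplied to reach 500.

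Of the probe sets 34945 list 1 gene symbol, 932 several and 9160 none, and 18193 genes, 9010 with more than 1 probe set, were each read by their brightest probe set. The log2 of signal plus 17.3 (the typical 20th percentile of an array) was tested, which understates changes of dim genes. limma 3.58.1 (R 4.3.3, with version 1.17.8 of data.table) was fitted per run with a mean per group and eBayes, two-sided, with the run code as an additive block in run A, so fitted changes there can differ from differences of means. The labels do not state which controls belong to which chemical, so the set of the same run and vehicle whose animal numbers follow was used. Trends are linear over control and doses in equal steps. The procedure was tested on simulated data. Columns of other samples numbered 0.

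The members and gene lists were chosen with earlier results of these data known. Named were the members, per list the called genes (up to 4) lowest in adjusted p in each comparison where a member was called, the 5 genes most like each member on either measure, and the neighbours. Listed genes without a probe set of their own were not analysed here. Alternatives were quantile normalization, values as deposited, other pseudocounts, dim genes left out, a fold of 2, other control groupings, the Gapdh ratio as a covariate, other probe sets and each array left out. Sequences were read with Python 3.11.15 and Biopython 1.88, and figures drawn with matplotlib 3.10.9. The number of arrays limits precision.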

Additional observations from a re-analysis of the deposited data

Results flagged for a closer look

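In 11 of 162 tests of a gene within a group of 4 or 5 arrays (54 groups), the highest or lowest array lay far from the rest, and chance alone gives about 1 in 20. For Cyp2b10 all 4 were low arrays: CCO4 replicate 4 at 9.89 (others 11.62 to 11.84), WCO1 replicate 1 at 9.93 (11.68 to 11.98), 1,2,3-Trichloropropane 20 mg/kg replicate 4 at 10.03 (12.02 to 12.39) and 6 mg/kg replicate 3 at 10.25 (12.27 to 12.46). For Cyp2b9 they were Methylene Chloride 4000 ppm replicate 2 at 14.11 (13.25 to 13.33), 1,4-Dichlorobenzene 400 mg/kg replicate 4 at 14.27 (13.86 to 13.87) and Propylene glycol mono-t-butyl ether 75 ppm replicate 2 at 14.47 (13.94 to 14.02), all high, and 1,2-Dibromoethane replicate 3 at 10.97 (13.80 to 13.86), low. For Cyp2b13 they were 1,2-Dibromoethane replicate 3 at 7.82 (12.49 to 13.06) and 1,2,3-Trichloropropane 20 mg/kg replicate 4 at 12.88 (13.37 to 13.44), both low, and 2,2-Bis(bromomethyl)-1,3-propanediol replicate 4 at 13.07 (12.48 to 12.61), high.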

How the results depend on the processing

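Of 694 values recomputed for 67 results, 629 kept their direction and side of the threshold, 16 lost the call, 12 gained one, 6 changed sign and 31, mostly counts over gene lists, moved. The call of Cyp2b10 with 1,5-Naphthalenediamine was lost with quantile normalization (1.45, adjusted p = 0.079), values as deposited (0.72), the 2 groups alone (1.56, adjusted p = 0.196) and the dimmest Cyp2b10 probe set (1.58). It was also lost with 2 alternatives chosen after seeing the data, all probe sets tested (1.56) and the 2 scaled arrays left out (1.46). The calls of Cyp2b9 with Methylene Chloride were lost at 4000 ppm with quantile normalization (-0.54, a fold under 1.5), values as deposited (-0.61, adjusted p = 0.0554) and the 2 groups alone (-0.61), and at 3000 ppm with the 2 groups alone (-0.65). Fitted with 2 groups alone, which leaves fewer arrays to estimate the spread, the calls of Cyp2b13 with Methylene Chloride at 2000 ppm (-1.63, adjusted p = 0.0944) and 3000 ppm (-2.12, 0.0505) and with 1,2,3-Trichloropropane at 40 mg/kg (-1.10, 0.139) and of Cyp2b10 with 1,4-Dichlorobenzene at 300 mg/kg (2.52, 0.0529) were lost. With values as deposited the calls of Cyp2b13 were lost with 1,2,3-Trichloropropane at 40 mg/kg (-1.10, adjusted p = 0.0503) and 1200 ppm of Propylene glycol mono-t-butyl ether (1.14, 0.0742).

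Cyp2b9 fell in 1 group with quantile normalization and with values as deposited, and in 0 with a fold of at least 2 and with 2 groups alone. Cyp2b13 rose in 2 groups with dim genes left out (N-(1-naphthyl)ethylenediamine dihydrochloride added) and with pooled controls (Naphthalene 0.5 ppm added) and in 0 with values as deposited, and it fell in 1 with 2 groups alone. Cyp2b13 with 1,2,3-Trichloropropane at 60 mg/kg was called under 5 alternatives, and Cyp2b10 with 1-Amino-2,4-dibromoanthraquinone and Pentachloronitrobenzene with dim genes left out or a higher pseudocount. Cyp2b10 between the control sets ACO1 and CCO4 was called with dim genes left out (1.11, adjusted p = 0.0383). The trend of Cyp2b13 over the dosed Naphthalene groups alone was -0.68 (adjusted p = 0.0435). 6 uncalled values changed sign: the Cyp2b13 trend with 1,4-Dichlorobenzene (-0.0081 with quantile normalization, -0.13 over dosed groups alone), the Cyp2b9 trends with Propylene glycol mono-t-butyl ether (-0.056, quantile) and Naphthalene (-0.061, dosed groups alone), and 1,5-Naphthalenediamine less N-(1-naphthyl)ethylenediamine dihydrochloride for Cyp2b10 (-0.35, as deposited) and Cyp2b13 (0.0030, Gapdh covariate). Where no cause is given above, the cause was not tested.

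Leaving out each array in turn, run only where a member was called, gave 240 refitted values, and 15 of them lost the call. These losses all fell on the results named next. Changes were 1.11 to 1.86 for Cyp2b10 with 1,5-Naphthalenediamine, and for Cyp2b13 -1.31 to -0.84 with 1,2,3-Trichloropropane at 40 mg/kg and 1.06 to 1.203 with 1200 ppm of Propylene glycol mono-t-butyl ether (trend 0.93 to 1.05). For Cyp2b9 with Methylene Chloride they were -0.78 to -0.57 at 3000 ppm and -0.81 to -0.53 at 4000 ppm. The calls of Cyp2b10 with Malathion and 1,4-Dichlorobenzene and of Cyp2b13 with Methylene Chloride lost none. No paired analysis was possible because the labels give no replicate numbers and those used here follow the order of the samples.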

Other observations

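On 1,2-Dibromoethane replicate 3, which was lowest of its group for all 3 members, Xist read 12.94, within the 12.46 to 14.41 of all arrays. On that array 6 of 16 measured female-biased genes, 6 of 15 male-biased genes and 6 of 22 targets of CAR or PXR lay at least 2-fold below the mean of the group's other arrays. Of all genes 6.44% lay that far below and 14.0% that far above.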
